A study of Rattus norvegicus with 72 samples.

Results

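The 7 genes described here encode the oxidising enzymes of the lung that act on foreign chemicals, together with a hydrolase and a reductase that work beside them. They are the cytochrome P450 genes Cyp2b1, Cyp2s1 and Cyp4b1, the flavin monooxygenase genes Fmo1 and Fmo2, the microsomal epoxide hydrolase gene Ephx1 and the P450 reductase gene Por. They were taken by symbol, and all 7 were found among the 30042 gene symbols of the deposited count table. RNA was sequenced from a piece of lung of 72 adult male Sprague-Dawley rats, 1 library per animal. The rats had breathed diesel exhaust particles at 1000 ug/m3 or 200 ug/m3, or filtered air, in whole-body chambers for 6 hours on each of 4 days. They were killed 1, 7 or 27 days later. Each of the 12 groups held 6 animals. The exposed groups were 1000 ug/m3 and 200 ug/m3 at each day. Every exposed group had air lungs of the same day and of the same letter in the titles, called air H for 1000 ug/m3 and air L for 200 ug/m3. What those letters mean is not given, so the letter and anything that went with it cannot be told apart.

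Cytochrome P450 monooxygenases use electrons passed from NADPH by Por to insert oxygen into lipophilic compounds, among them the aromatic hydrocarbons carried on diesel soot. Flavin monooxygenases oxidise nitrogen and sulphur atoms of drugs and toxicants and take NADPH directly, without Por. Ephx1 adds water to the reactive epoxides that P450 enzymes form. In rodent lung these enzymes are known mainly from the club cells and ciliated cells of the airways and from type II pneumocytes, while Fmo2 is the typical flavin monooxygenase of mammalian lung. Many laboratory rat strains carry an Fmo2 allele that encodes a truncated protein, which transcript counts do not show.

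The promoters of Por, Cyp2s1, Cyp4b1 and Cyp2b1 are shown because counts of Por and Cyp2s1 were lower in H than in L lungs at day 7, while those of Cyp4b1 and Cyp2b1 were not lower in the H lungs by the test. Each sequence is the 250 bases before the gene's annotated start, written 5′ to 3′ on the gene's strand, from RefSeq on the build GRCr8. All 7 genes matched that table, with 8 windows, since Ephx1 has 2. The Por window is chr12:26635810-26636059 on the minus strand, and the Cyp2s1 window is chr1:90453074-90453323 on the minus strand. The Cyp4b1 window is chr5:134393117-134393366 on the minus strand, and the Cyp2b1 window is chr1:90645869-90646118 on the plus strand. Capitals mark GCGTG, the core that the aryl hydrocarbon receptor with Arnt binds, and GGGCGG, the GC box, on either strand.
Por: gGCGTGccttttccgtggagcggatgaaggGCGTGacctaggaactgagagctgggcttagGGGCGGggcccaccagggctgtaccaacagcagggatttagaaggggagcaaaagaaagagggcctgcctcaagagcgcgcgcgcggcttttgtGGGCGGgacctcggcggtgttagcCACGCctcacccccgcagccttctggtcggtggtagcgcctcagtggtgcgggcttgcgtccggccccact
Cyp2s1: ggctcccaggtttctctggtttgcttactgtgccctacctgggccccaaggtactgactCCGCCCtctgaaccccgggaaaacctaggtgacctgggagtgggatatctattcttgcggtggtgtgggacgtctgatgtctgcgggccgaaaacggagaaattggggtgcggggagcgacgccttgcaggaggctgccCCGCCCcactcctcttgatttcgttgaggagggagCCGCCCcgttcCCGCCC
Cyp4b1: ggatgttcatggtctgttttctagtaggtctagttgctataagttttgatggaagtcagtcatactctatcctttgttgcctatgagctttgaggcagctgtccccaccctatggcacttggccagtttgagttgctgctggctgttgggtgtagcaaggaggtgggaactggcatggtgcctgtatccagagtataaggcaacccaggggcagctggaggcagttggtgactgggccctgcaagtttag
Cyp2b1: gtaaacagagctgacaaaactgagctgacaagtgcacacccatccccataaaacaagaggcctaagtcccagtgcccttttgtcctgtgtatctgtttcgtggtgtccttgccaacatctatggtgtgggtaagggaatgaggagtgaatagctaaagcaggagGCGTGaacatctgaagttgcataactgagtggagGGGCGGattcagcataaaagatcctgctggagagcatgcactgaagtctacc
The Por and Cyp2s1 windows were the richest in G and C among the 8, with 66% and 62.4%, against a median of 51.2% over all 33469 windows. They held 20 and 15 CpG steps, against a median of 5 over all windows. The Cyp4b1 window had 51.2% G and C and 0 CpG steps, and the Cyp2b1 window had 48.8% and 3. GCGTG occurred 3 times before Por and 1 time before Cyp2b1, and 25.9% of all windows held it. GGGCGG occurred 4 times before Cyp2s1, 2 times before Por and 1 time each before Cyp2b1 and in a window of Ephx1, and 30.5% of all windows held it. The antioxidant element core TGACNNNGC was found before Cyp2s1, where it overlaps a GC box, before Cyp4b1 and in the other window of Ephx1. It was present in 10.1% of all windows. No window of the 7 genes held TATAAA on either strand, which 12.9% of all windows held. These letters describe the windows and do not show that a factor was bound.

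Libraries of day 1 held 1042336 to 2397971 counts, and those of days 7 and 27 held 3471134 to 6520180, apart from 3 shallow libraries. The shallow ones were 1000 ug/m3 lungs with 105453 counts at day 7 (animal 037) and with 149004 and 439393 counts at day 27 (animals 045 and 024). In animal 037 the levels of Por and Ephx1 rest on 4 counts each and that of Cyp2s1 on 1 count. In the 1000 ug/m3 group of day 27 the fewest counts in a library were 1 for Cyp2s1, 10 for Ephx1 and 16 for Por. All 7 genes were tested in every comparison. The highest marker of the club cell list, the secretoglobin Scgb1a1, had a mean of 2139 CPM. That of the type I pneumocyte list, the receptor Ager, had 1634 CPM. Other club cell markers had means from 1.84 CPM (Bpifa1) to 133 CPM (Scgb3a2). The liver marker Alb had a mean of 1.63 CPM, and Serpina1, the highest of the liver list, had 29.9 CPM. CPM is the count of a gene per 1000000 counts of its library after scaling by TMM, which balances the libraries on the bulk of their genes. The means over all libraries of single marker genes and of Cyp2b2 instead use plain library totals without that scaling. CPM does not correct for transcript length, so levels are compared between groups and not between genes.

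Among the P450 genes, Cyp2b1, a phenobarbital-inducible enzyme in rat liver that is constitutive in rat lung, lay between 192 and 439 CPM over the 72 libraries. Its group means ranged from 398 ± 38.3 CPM in air L lungs at day 27 (SD, n = 6) down to 257 ± 37.4 CPM in air L lungs at day 1. Cyp4b1, which activates furans such as 4-ipomeanol in lung, lay between 213 and 553 CPM, with group means that were highest in air L lungs at day 27 (484 ± 59.6 CPM) and lowest in 1000 ug/m3 lungs at day 1 (277 ± 48.7 CPM). Cyp2s1, an enzyme of airway epithelium that dioxin induces in mouse lung, had the fewest counts, 6.24 to 40.2 CPM, on 1 to 174 counts per library. Its highest group mean was 2.55 times its lowest, the widest ratio of the 7 genes.

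Of the flavin monooxygenase genes, Fmo1 lay between 154 and 364 CPM and Fmo2 between 336 and 944 CPM. The group means of Fmo1 differed by at most 1.44 times, and those of Fmo2 by at most 1.75 times. Ephx1 lay between 34.6 and 119 CPM, with group means that differed by at most 1.43 times. Por, the electron donor that microsomal P450 enzymes share, lay between 34.6 and 147 CPM. Its highest group mean, 131 ± 7.19 CPM in 200 ug/m3 lungs at day 7, was 2.49 times its lowest, 52.4 ± 9.50 CPM in air H lungs at day 7.

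When the 12 groups were ordered by mean, neighbours differed by more than the larger of their 2 SDs in only 2 places over the 7 genes. One was in Por and the other in Cyp2s1, and both lay between air L at day 27 and 1000 ug/m3 at day 7. For both genes the means of the 1000 ug/m3 and the air H groups of day 7 therefore stood below those of the other 10 groups. Single lungs overlapped. The highest 1000 ug/m3 lung of day 7 had 92.6 CPM of Por and 19.7 CPM of Cyp2s1. The lowest levels in air L lungs of day 27 were 65.5 and 12.8 CPM. The steps between neighbours of Cyp2b1, Cyp4b1, Fmo1, Fmo2 and Ephx1 were all within the larger SD. Reads of near-identical copies may be split or lost in counting, which bears on Cyp2b1 and its close paralogue Cyp2b2, whose mean level in the table was 4.21 CPM.

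**Figure D1:**
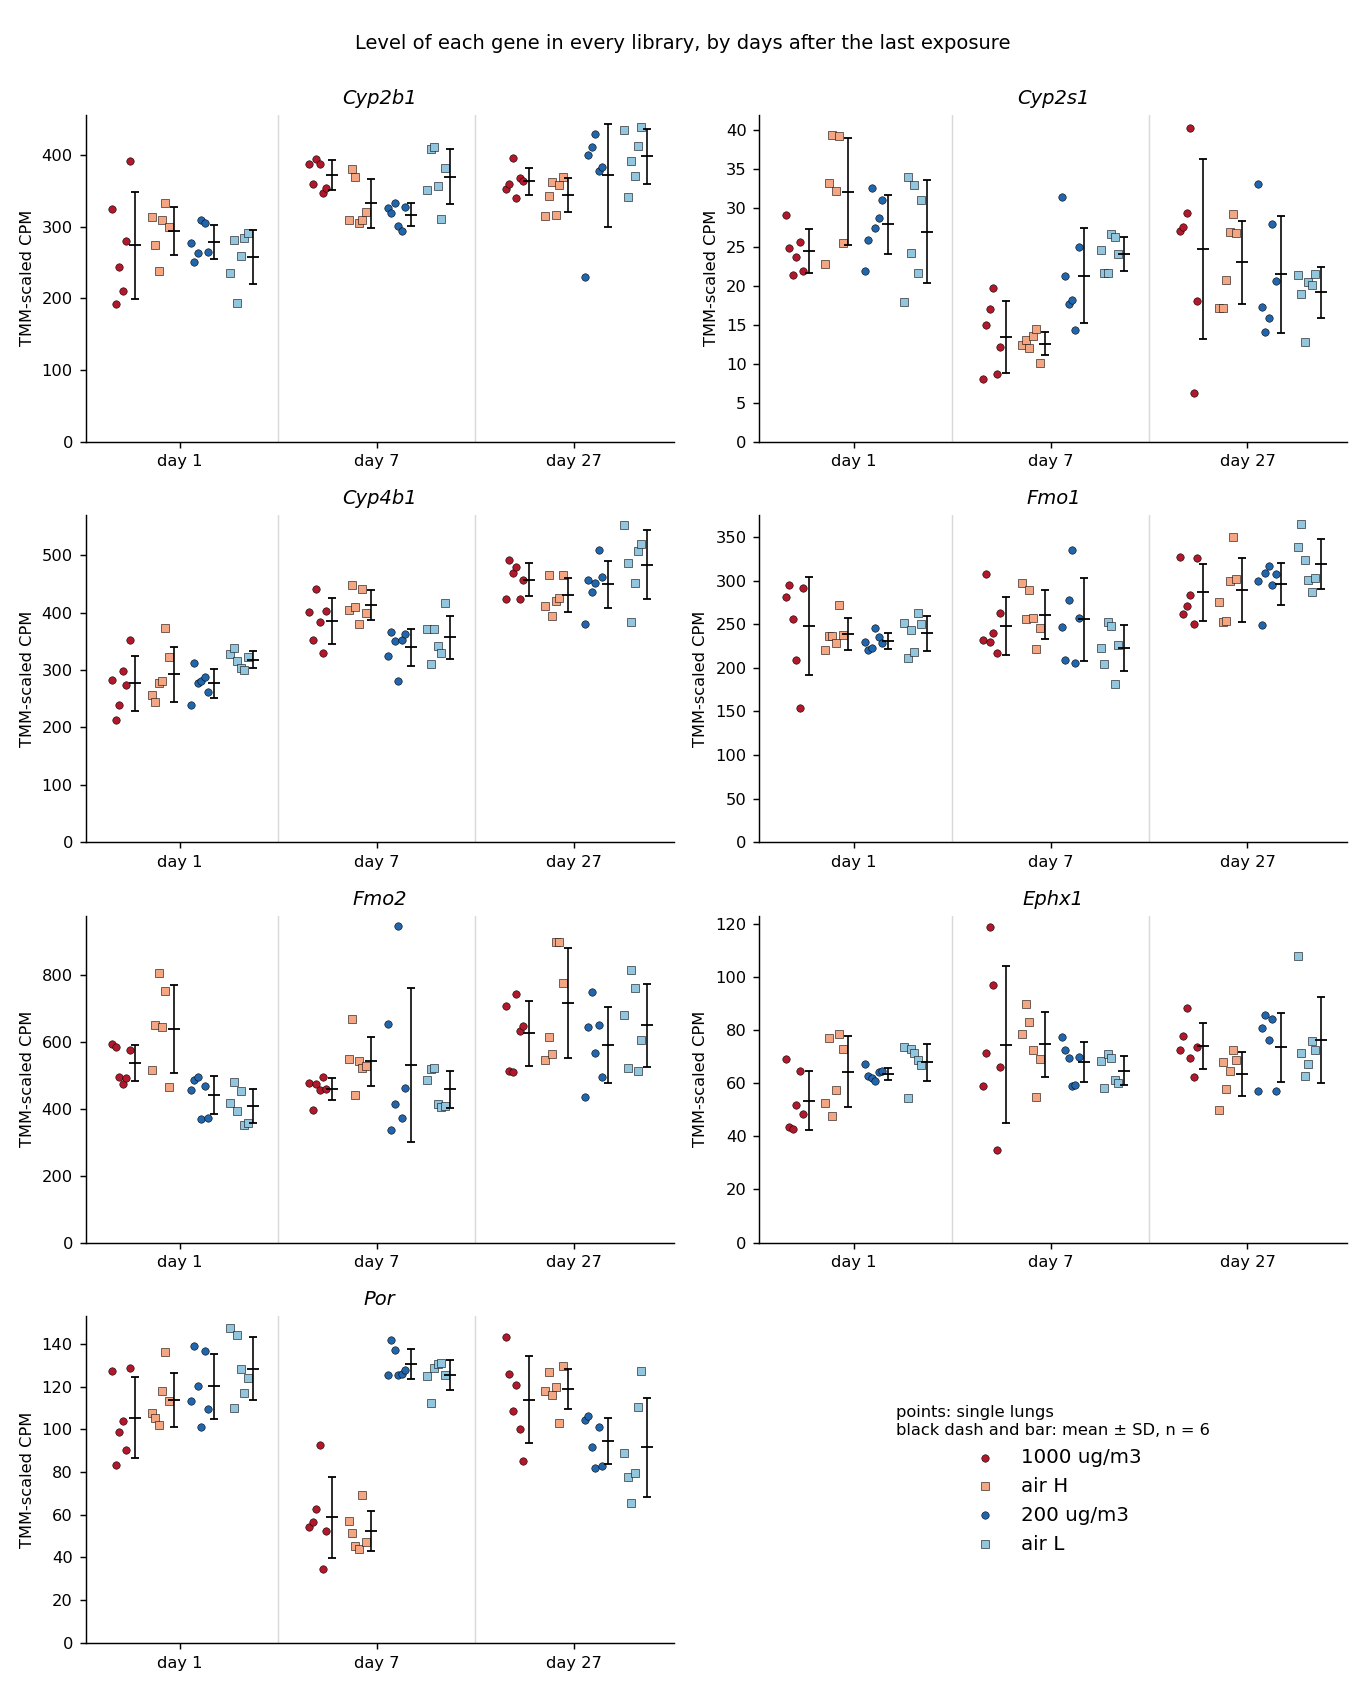
TMM-scaled CPM (y axis, from 0) of each of the 7 genes in each of the 72 lungs, by day, with 1000 ug/m3 left of air H and 200 ug/m3 left of air L; black dashes and bars are group means ± SD (n = 6). Por and Cyp2s1 show a low pair of H groups at day 7, where air H means were 52.4 and 12.6 CPM, while exposed and air lungs of the same letter overlap in all panels.

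The exposure comparisons ask whether inhaled particles changed transcripts of these enzymes. Across the 6 exposure comparisons, each of exposed lungs with their own air lungs, 0 of the 7 genes passed the test. The test was edgeR's quasi-likelihood test with Benjamini-Hochberg adjustment over all genes tested, with a threshold of 0.05. Of the 42 values, 8 had an unadjusted p under 0.05, and the lowest adjusted p was 0.568. Over all genes at 1000 ug/m3, such p-values numbered 419 of 12304, 629 of 14331 and 1034 of 14761 at days 1, 7 and 27. At 200 ug/m3 they numbered 741, 818 and 1430 of the same totals. DESeq2 and limma-voom also called 0 of the 42. Over all genes tested, 0% were called at 1000 ug/m3 on days 1, 7 and 27. At 200 ug/m3, 0% were called on days 1 and 27, and 0.00698%, or 1 gene of 14331, on day 7. The count of 0 for the 7 genes is thus read against a table with almost no calls. In simulated counts with these depths and spreads, 52% of genes changed by 1.5-fold and 86% of those changed by 2-fold were recovered for 1000 ug/m3 against air H at day 1, among 12190 genes. That simulation changed 50 genes at each of 1.5-, 2-, 3- and 4-fold and had 179 calls in all. With that many calls the adjusted threshold is easier to pass than in the observed comparisons. The recovered shares therefore do not give the recovery of a gene that changes nearly alone.

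At day 1, 6 of the 7 genes had a negative log2 fold in 1000 ug/m3 lungs, with a median of -0.10, where the median over all genes was -0.0012. Cyp2s1 had a lowest, median and highest level of 21.3, 24.2 and 29.1 CPM in 1000 ug/m3 lungs, against 22.8, 32.7 and 39.3 CPM in air H lungs. Its log2 fold was -0.38 (SE 0.16, unadjusted p = 0.0243, adjusted p = 1). Fmo2 had 473, 535 and 593 CPM in 1000 ug/m3 lungs, against 464, 647 and 804 CPM in air H lungs, a log2 fold of -0.24 (SE 0.11, unadjusted p = 0.0338, adjusted p = 1). All 6 exposed lungs lay below the air mean for both genes, and the groups overlapped for both. Ephx1 had 42.7 to 69.1 CPM in 1000 ug/m3 lungs (mean 53.3 ± 11.1), against 47.6 to 78.4 CPM in air H lungs (mean 64.2 ± 13.4), a log2 fold of -0.27 (SE 0.13, unadjusted p = 0.0392, adjusted p = 1). At 200 ug/m3 the 7 log2 folds at day 1 spanned -0.20 to 0.11. The lowest belonged to Cyp4b1, with 240, 279 and 313 CPM in 200 ug/m3 lungs, against 299, 319 and 338 CPM in air L lungs (unadjusted p = 0.0447, adjusted p = 0.82).

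At day 7, Cyp2b1 stood on opposite sides of air at the 2 concentrations, and neither difference passed the test. It had a lowest, median and highest level of 346, 373 and 394 CPM in 1000 ug/m3 lungs, against 305, 315 and 381 CPM in air H lungs. The log2 fold was 0.18 (SE 0.067, adjusted p = 1), and all 6 exposed lungs lay above the air mean. The lowest of them, the shallow animal 037, had 40 counts. Cyp2b1 had 294, 322 and 333 CPM in 200 ug/m3 lungs, against 310, 369 and 410 CPM in air L lungs. That log2 fold was -0.22 (SE 0.065, unadjusted p = 0.00206, adjusted p = 0.568), and all 6 exposed lungs lay below the air mean. The difference between the 2 effects was 0.40 on the log2 scale (95% interval 0.21 to 0.59, unadjusted p = 0.000188, adjusted p = 0.497). Por, in which both H groups were low at this day, had 34.6, 55.4 and 92.6 CPM in 1000 ug/m3 lungs, against 44.2, 49.3 and 69.2 CPM in air H lungs. Its log2 fold was 0.29 (SE 0.12, unadjusted p = 0.0234, adjusted p = 1), and 0.31 without the shallow library. Fmo2, the lung flavin monooxygenase, was widely spread in 200 ug/m3 lungs at this day, 530 ± 231 CPM, against 457 ± 56.0 CPM in air L lungs.

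At day 27, Ephx1 had the lowest unadjusted p among the 7 genes at 1000 ug/m3. It had 62.4, 72.9 and 88.1 CPM in 1000 ug/m3 lungs, against 49.9, 66.1 and 72.4 CPM in air H lungs, a log2 fold of 0.29 (SE 0.13, unadjusted p = 0.0324, adjusted p = 0.692). The groups overlapped, and 2 of the 6 exposed libraries were shallow. At 200 ug/m3 the log2 folds of day 27 spanned -0.13 to 0.17, and 0 of 7 had an unadjusted p under 0.05. The Ephx1 fold was negative at 1000 ug/m3 on day 1 and positive on day 27; the difference between the days was not tested.

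The 3 tests of the difference between the 2 concentrations called 0 of the 7 genes at each day, and 0 by DESeq2 and limma-voom. Of these 21 values, 3 had an unadjusted p under 0.05: Fmo2 at day 1, Cyp2b1 at day 7 and Cyp4b1 at day 27. In the whole table such p-values numbered 537 of 12304, 747 of 14331 and 1961 of 14761 at days 1, 7 and 27. Over all genes the differences called 0.00813%, or 1 gene, at day 1 and 0% at days 7 and 27. The exposure effect averaged over the 6 comparisons gave the narrowest intervals. By edgeR, DESeq2 and limma-voom alike 0 of 7 were called, while edgeR called 0.0134%, or 2 of 14956 genes, over the whole table. The 1 gene of the 7 with an unadjusted p under 0.05 was Cyp4b1, beside 757 of 14956 genes over the whole table. The averaged log2 fold of Por was 0.03 (95% interval -0.076 to 0.13) and that of Cyp2b1 was -0.01 (95% interval -0.095 to 0.074). That of Cyp4b1 was -0.07 (95% interval -0.14 to -0.0057, unadjusted p = 0.0341, adjusted p = 0.961), and that of Fmo2 was -0.09 (95% interval -0.22 to 0.044). Cyp2s1, Fmo1 and Ephx1 each had 0.01, with 95% intervals of -0.15 to 0.16, -0.074 to 0.090 and -0.11 to 0.12 in that order. For the averaged effect, 90% of genes changed by 1.5-fold in simulated counts were recovered, among 14829 genes. That simulation had 199 calls in all, so this share does not give the recovery of a gene that changes nearly alone.

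**Figure D2:**
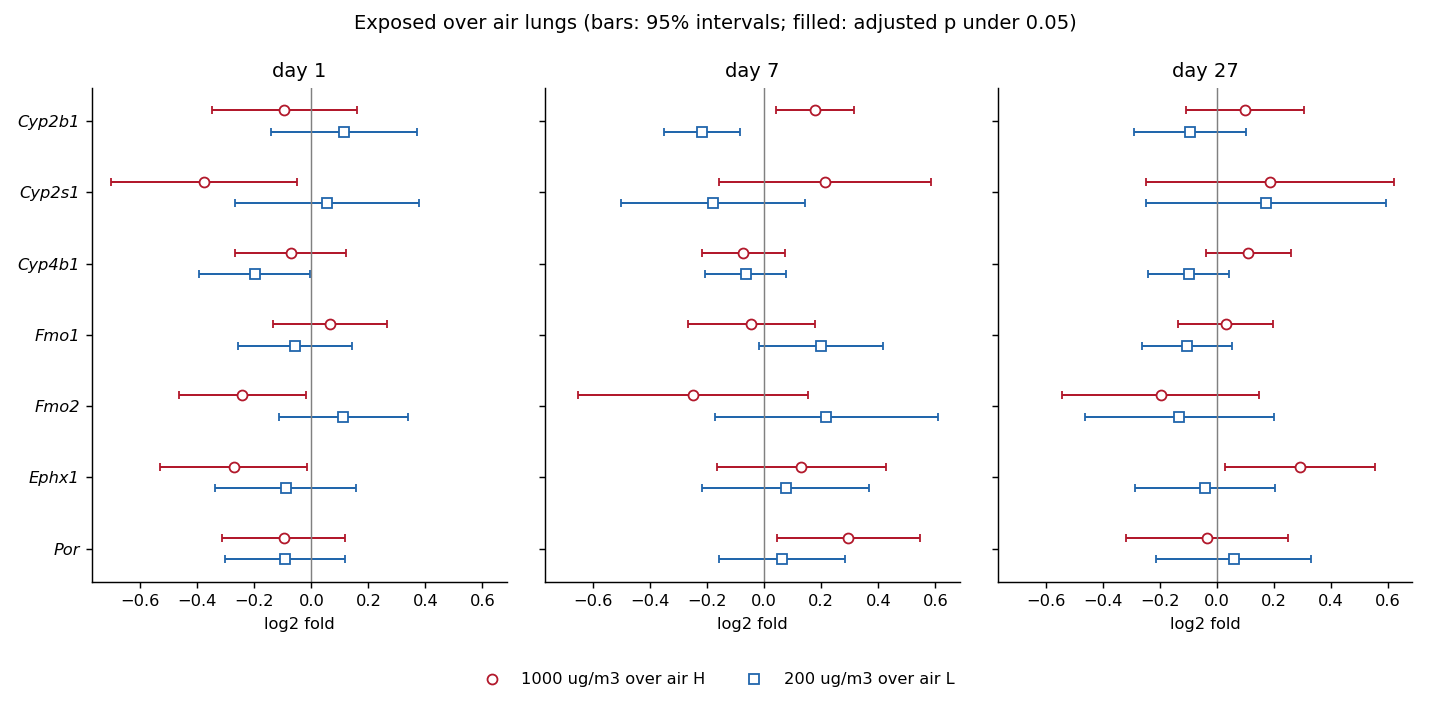
Log2 fold of exposed over air lungs of the same letter and day (x axis) for the 7 genes, with 95% intervals, in 3 panels by day; circles are 1000 ug/m3 over air H and squares 200 ug/m3 over air L. All 42 markers are open, since no adjusted p was under 0.05.

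The rest of the pathway was read from 6 lists of other genes: P450 monooxygenases, flavin monooxygenases, electron supply and other epoxide hydrolases, conjugating enzymes, carbonyl and ester metabolism, and xenobiotic-sensing regulators. In the 6 exposure comparisons, 0 of their 474 values passed the edgeR test, nor did any by DESeq2 or limma-voom, while 34 had an unadjusted p under 0.05. The 237 values of the differences between concentrations and the 84 of the averaged effect also gave 0 calls by each of the 3 tools, with 20 and 5 at an unadjusted p under 0.05. These numbers stand beside those over all genes given above for the same comparisons. The medians of the lists over these comparisons lay between -0.28 and 0.25 on the log2 scale, and the widest were those of the 3 other flavin monooxygenases. Cyp1a2, Cyp2b12, Cyp2b15, Cyp4a8 and Cyp4x1 are listed at 0 in all libraries.

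The H and L lungs differed within the same exposure status, and here some of the 7 genes passed the test. The air H and air L lungs are also the controls of the exposure comparisons, so the 2 kinds of comparison share animals. At day 1, Fmo2 was higher in air H lungs, with a lowest, median and highest level of 464, 647 and 804 CPM, against 351, 406 and 478 CPM in air L lungs. The groups overlapped, and all 6 air H lungs lay above the air L mean. The log2 fold was 0.63 (SE 0.11, adjusted p = 0.0121), and it passed under all 20 alternatives run, with adjusted p-values from 0.000343 to 0.0406. It was 1 of 7 genes called, 14.3%, against 1.68% of all genes tested. Between 1000 ug/m3 and 200 ug/m3 lungs of day 1, 0 of 7 were called by edgeR, as were 0% of all genes. There Fmo2 had 535 ± 54.1 CPM in 1000 ug/m3 lungs and 440 ± 56.0 CPM in 200 ug/m3 lungs, with overlap, a log2 fold of 0.28 (SE 0.11, adjusted p = 0.305). No other gene of the 7 had an unadjusted p under 0.05 there, and by DESeq2 and limma-voom 0 were called too.

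At day 7, Por was lower in air H lungs, with 44.2, 49.3 and 69.2 CPM as lowest, median and highest, against 112, 127 and 131 CPM in air L lungs. The groups did not overlap. Means were 52.4 ± 9.50 CPM in air H lungs and 125 ± 6.89 CPM in air L lungs, a log2 fold of -1.26 (SE 0.11, adjusted p = 3.37e-09). The exposed lungs of the same letters, which are other animals, showed 34.6, 55.4 and 92.6 CPM at 1000 ug/m3, against 125, 127 and 142 CPM at 200 ug/m3. These groups did not overlap either, with a log2 fold of -1.03 (SE 0.12, adjusted p = 1.99e-07), and the call held without the shallow library. Por kept its call in both comparisons under every alternative run, 21 for the air lungs and 22 for the exposed lungs. In whole lung, fewer cells of a type and less RNA per cell cannot be told apart.

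Cyp2s1 was also lower in air H lungs at day 7, with 10.1, 12.7 and 14.4 CPM, against 21.6, 24.3 and 26.7 CPM in air L lungs. The groups did not overlap, and the log2 fold was -0.93 (SE 0.17, adjusted p = 8.32e-05). In exposed lungs it had 8.09, 13.6 and 19.7 CPM at 1000 ug/m3, against 14.3, 19.7 and 31.3 CPM at 200 ug/m3. These groups overlapped, and the log2 fold was -0.54 (SE 0.17, adjusted p = 0.0186). That call was lost in the fit of only the 12 libraries compared (adjusted p = 0.0777), without animal 013 of 1000 ug/m3 (log2 fold -0.40, adjusted p = 0.0642) and without animal 073 of 200 ug/m3 (log2 fold -0.40, adjusted p = 0.0695).

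The other monooxygenase genes were not lower in H lungs by the test. Cyp4b1 was higher in air H lungs, with 381, 407 and 448 CPM, against 311, 356 and 417 CPM in air L lungs. The groups overlapped, with a log2 fold of 0.22 (SE 0.069, adjusted p = 0.0197). It was also higher in exposed lungs, 385 ± 39.6 CPM at 1000 ug/m3 and 340 ± 32.3 CPM at 200 ug/m3, with a log2 fold of 0.21 (SE 0.071, adjusted p = 0.0275). Both lay near the threshold. The air call was lost without animal 010 of air H or animals 066 or 069 of air L (log2 fold 0.17 to 0.20, adjusted p = 0.0538 to 0.076). The exposed call was lost in the fit of all 72 libraries (log2 fold 0.21, adjusted p = 0.0578) and of only the 12 compared (log2 fold 0.21, adjusted p = 0.0539). It was also lost without animals 013, 015 or 038 of 1000 ug/m3 or animal 073 of 200 ug/m3 (log2 fold 0.17 to 0.20, adjusted p = 0.0547 to 0.101). Cyp2b1 had 346, 373 and 394 CPM at 1000 ug/m3, against 294, 322 and 333 CPM at 200 ug/m3. The groups did not overlap, with a log2 fold of 0.25 (SE 0.067, adjusted p = 0.00617), which a fit of all 72 libraries lost (adjusted p = 0.0702). In air lungs Cyp2b1 had a log2 fold of -0.15 (SE 0.065, adjusted p = 0.0896), which passed the test without animal 010 of air H or animal 069 of air L. Fmo1, Fmo2 and Ephx1 were not called in either comparison at this day, though Fmo1 passed between air lungs in the fit of only the 12 libraries compared (adjusted p = 0.0487).

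In air lungs at day 7 the test called 3 of 7 genes, 42.9%, against 25.5% of all genes tested. In exposed lungs it called 4 of 7, 57.1%, against 27.9% of all genes. Whether these shares differ from those of the whole table was not tested. The median log2 fold of the 7 genes was 0.21 in air lungs and -0.01 in exposed lungs, beside 0.015 and 0.011 over all genes.

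At day 27, 0 of 7 genes were called between air H and air L lungs, against 14% of all genes tested, although 4 of 7 had an unadjusted p under 0.05. Over all genes, 4170 of 14761 had such a p-value. Por now stood higher in air H lungs, with 103, 119 and 130 CPM, against 65.5, 84.2 and 127 CPM in air L lungs. The log2 fold was 0.37 (SE 0.13, adjusted p = 0.0563). It passed the test in DESeq2 (adjusted p = 0.0322), in limma-voom (adjusted p = 0.0232), in the fit of all 72 libraries (adjusted p = 0.0173) and without animal 086 or 087 of air L (log2 fold 0.42 and 0.49). Cyp4b1 had a log2 fold of -0.18 (adjusted p = 0.0863) and passed without animal 084 of air L (log2 fold -0.24, adjusted p = 0.0183). Cyp2b1 had a log2 fold of -0.22 (adjusted p = 0.122) and passed in the fit of only the 12 libraries compared (log2 fold -0.23, adjusted p = 0.0158). Between 1000 ug/m3 and 200 ug/m3 lungs of day 27, 0 of 7 were called by edgeR, DESeq2 and limma-voom, 0 had an unadjusted p under 0.05, and 0% of all genes were called. Por had 114 ± 20.5 CPM at 1000 ug/m3 and 94.6 ± 10.7 CPM at 200 ug/m3 there, a log2 fold of 0.28 (SE 0.14, adjusted p = 0.681).

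**Figure D3:**
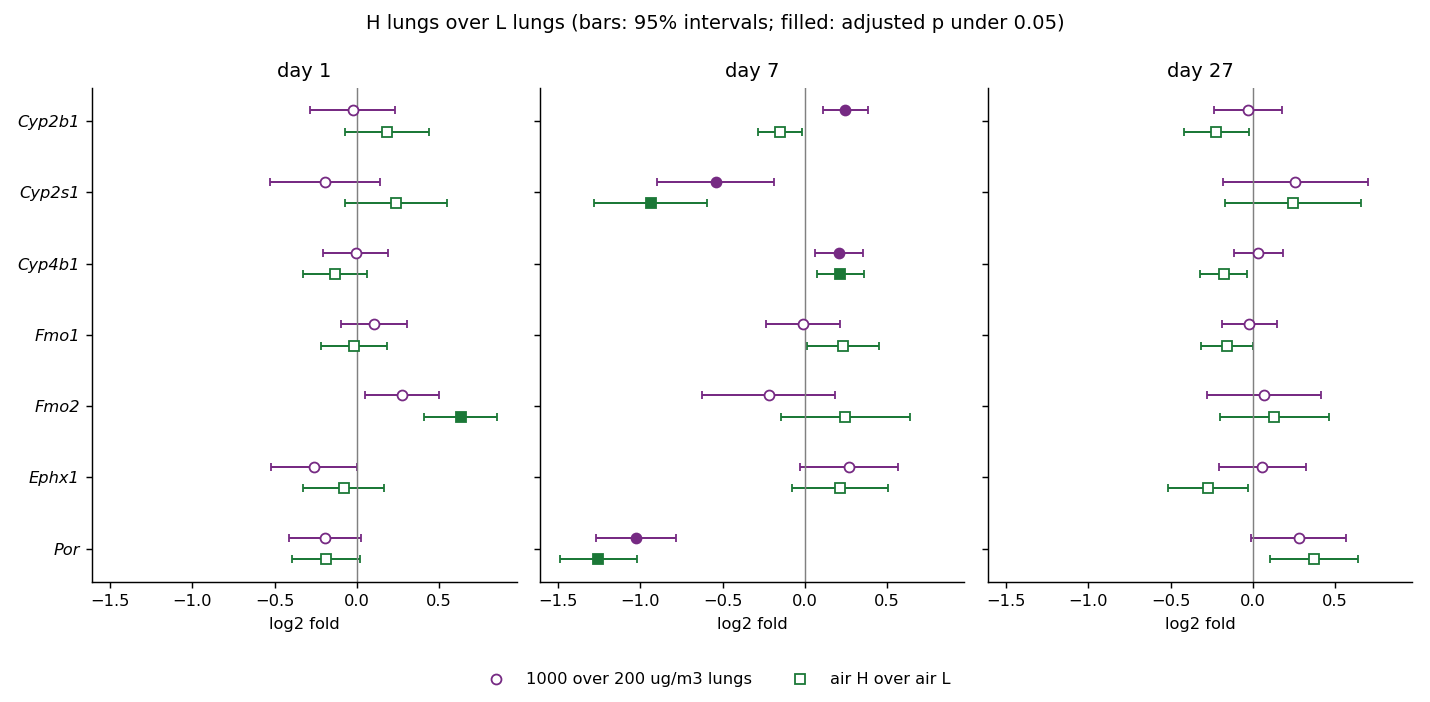
Log2 fold of H over L lungs (x axis) for the 7 genes, with 95% intervals, in 3 panels by day; circles are 1000 ug/m3 over 200 ug/m3 lungs, squares air H over air L lungs, and filled symbols had an adjusted p under 0.05. At day 7 Por (-1.03 and -1.26) and Cyp2s1 (-0.54 and -0.93) lie left of 0, and at day 1 Fmo2 (0.63 in air lungs) lies right of it.

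Genes of the lists that hand electrons to monooxygenases or clear epoxides also differed between air H and air L lungs at day 7. In that comparison 25.5% of all genes tested were called. Of 8 tested genes for electron supply and other epoxide hydrolases, 2 were lower in air H and 2 were higher. Cyb5r3, the NADH-cytochrome b5 reductase, was lower, with 159 ± 14.9 CPM in air H lungs and 261 ± 18.7 CPM in air L lungs (log2 fold -0.71, SE 0.060, adjusted p = 1.69e-10). Ephx2, the soluble epoxide hydrolase, was lower as well, with 3.87 ± 1.33 CPM in air H lungs and 10.6 ± 2.03 CPM in air L lungs (log2 fold -1.46, SE 0.21, adjusted p = 3.98e-06). Pgrmc1, a haem-binding partner of P450 enzymes, and the electron carrier Cyb5a were higher, by 0.30 and 0.17 on the log2 scale. The median of this list was -0.22, beside 0.015 over all genes. Of 17 other P450 genes tested, 0 were called in this comparison by edgeR, DESeq2 or limma-voom, and 2 had an unadjusted p under 0.05 in edgeR. Of 3 other flavin monooxygenases, 0 were called by these tools and 0 had an unadjusted p under 0.05.

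Among 22 conjugating enzymes, 2 were higher in air H lungs at day 7 and 0 lower. Among them was the glutathione transferase Gsta1 (log2 fold 0.38, adjusted p = 0.0477). Among 25 genes of carbonyl and ester metabolism, the aldehyde dehydrogenases Aldh1a1 (log2 fold 0.29) and Aldh3a2 (0.19) were higher in air H, while Aldh2 (-0.33) and the alcohol dehydrogenase Adh1 (-0.87) were lower. Among 8 regulators, Rxra, the partner of several nuclear receptors, was lower in air H by 0.50 on the log2 scale (36.5 ± 4.26 CPM in air H lungs and 51.9 ± 4.92 CPM in air L lungs, adjusted p = 0.000456). Arnt, the partner of the aryl hydrocarbon receptor, was lower by 0.35, with 67.8 ± 3.96 CPM in air H lungs and 86.6 ± 3.67 CPM in air L lungs. Keap1 and the glucocorticoid receptor gene Nr3c1 were higher, by 0.23 and 0.16. These counts stand beside the 25.5% of all genes called in that comparison.

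In the exposed lungs of day 7, 1000 ug/m3 against 200 ug/m3, the electron supply list had 2 genes higher and 3 lower of 8. Cyb5r3 had 158 ± 11.1 CPM in 1000 ug/m3 lungs and 239 ± 10.2 CPM in 200 ug/m3 lungs (log2 fold -0.58, SE 0.063, adjusted p = 2.25e-08). Ephx2 had 3.17 ± 2.08 CPM in 1000 ug/m3 lungs and 8.96 ± 1.78 CPM in 200 ug/m3 lungs (log2 fold -1.27, SE 0.23, adjusted p = 8.18e-05). Of 22 conjugating enzymes 4 were higher at 1000 ug/m3 and 0 lower, led by the membrane glutathione transferase Mgst1 (log2 fold 0.35). Of 25 genes of carbonyl and ester metabolism 6 were higher and 2 lower, of 8 regulators 3 were higher and 2 lower, and of 17 other P450 genes 1 was higher, Cyp2j4 (log2 fold 0.61). These counts stand beside the 27.9% of all genes called there.

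At day 27 Cyb5r3 stood the other way between the air lungs, with 236 ± 23.5 CPM in air H lungs and 177 ± 11.4 CPM in air L lungs (log2 fold 0.41, adjusted p = 0.000741). Rxra was also higher in air H then, with 49.1 ± 4.05 CPM, against 35.5 ± 3.41 CPM in air L lungs (log2 fold 0.46, adjusted p = 0.000784). Of 17 other P450 genes, 4 were called at day 27, where 14% of all genes were. Cyp2d4 was higher in air H (log2 fold 0.45), and Cyp4f6 (-0.47), Cyp2j3 (-0.43) and Cyp4v3 (-0.38) were lower.

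**Figure D4:**
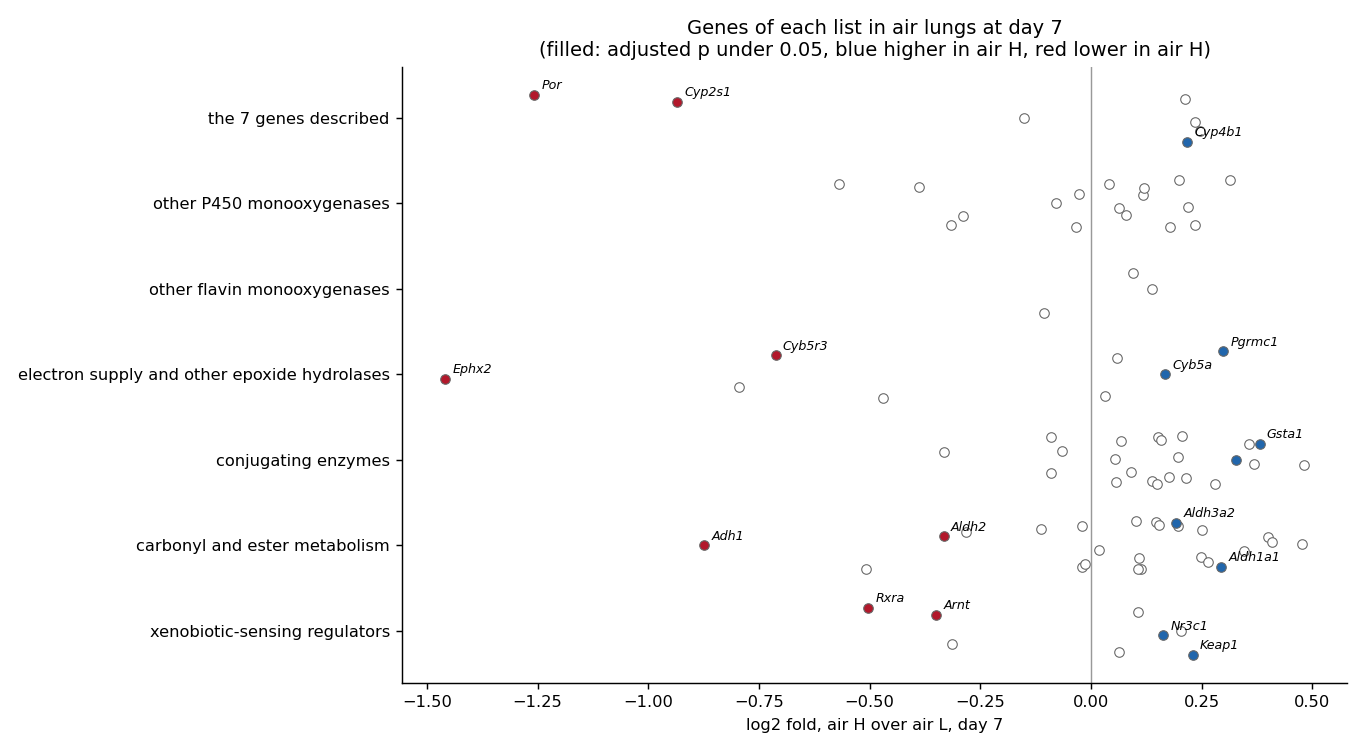
Log2 fold of air H over air L lungs at day 7 (x axis) for each tested gene of the 7 described and of the 6 other lists (rows; vertical scatter has no meaning); filled points had an adjusted p under 0.05. Por (-1.26), Cyp2s1 (-0.93), Cyb5r3 (-0.71) and Ephx2 (-1.46) lie left of 0, and the conjugating enzyme Gsta1 (0.38) lies right of it.

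Some cell type markers differed between air H and air L lungs at day 7, where 25.5% of all genes were called, 10.3% higher and 15.2% lower in air H. The part of these cells in the differences of Por and Cyp2s1 was not tested. Of 7 club cell markers, 1 was lower in air H, Scgb1a1, and the summed level of the list was 1046 to 1634 CPM in air H lungs, against 1538 to 2450 CPM in air L lungs. That sum is mostly Scgb1a1, with a mean of 2139 CPM over all libraries, against 133 CPM for Scgb3a2, the next. Of 9 ciliated cell markers 0 were called by edgeR and 1 had an unadjusted p under 0.05, with sums of 494 to 639 CPM in air H lungs, against 428 to 594 CPM in air L lungs. The ciliated sum is mostly Tppp3, with a mean of 384 CPM over all libraries, against 93.7 CPM for Dnah9, the next. Of 10 type II pneumocyte markers, 4 were lower in air H, with sums of 15720 to 19050 CPM, against 15630 to 21130 CPM in air L lungs. Of 7 type I pneumocyte markers, 5 were lower and 1 higher, with sums of 4277 to 4529 CPM in air H lungs, against 4995 to 5494 CPM in air L lungs. Of 8 endothelial markers, 3 were lower and 1 higher, with sums of 2756 to 3081 CPM in air H lungs, against 3249 to 3529 CPM in air L lungs. Of 6 fibroblast markers, 1 was higher and 1 lower, with sums of 4673 to 5764 CPM in air H lungs, against 4303 to 4868 CPM in air L lungs. The fibroblast sum is mostly Col3a1, with a mean of 3493 CPM over all libraries, against 306 CPM for Col1a1, the next. Of 6 smooth muscle markers, 2 were higher and 0 lower, with sums of 882 to 1139 CPM in air H lungs, against 682 to 951 CPM in air L lungs. Of 6 neutrophil markers, 2 were higher and 0 lower, with sums of 75.3 to 274 CPM in air H lungs, against 78.1 to 114 CPM in air L lungs. Of 6 alveolar macrophage markers 1 was lower, and of 5 red blood cell markers 1 was higher and 1 lower, with sums that overlapped between the letters. In the exposed lungs of day 7, club cell sums were 872 to 2368 CPM at 1000 ug/m3, against 1556 to 3132 CPM at 200 ug/m3. Library totals of the air lungs overlapped, 3718893 to 4969712 counts in air H lungs and 3471134 to 4415131 in air L lungs.

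The air lungs were also compared over time. The day goes with the sequencing depth between day 1 and day 7, and those changes cannot be told apart from it. In air H lungs Por fell to 52.4 ± 9.50 CPM at day 7, against 114 ± 12.4 CPM at day 1, with no overlap (log2 fold -1.09, SE 0.14, adjusted p = 4.28e-08). It was 119 ± 9.50 CPM at day 27, higher than at day 7 by 1.15 on the log2 scale (SE 0.12, adjusted p = 7.09e-09). Cyp2s1 in air H lungs likewise fell to 12.6 ± 1.48 CPM at day 7, against 32.0 ± 6.84 CPM at day 1 (log2 fold -1.31, SE 0.18, adjusted p = 9.61e-08). At day 27 it was 23 ± 5.31 CPM, higher than at day 7 by 0.82 (SE 0.16, adjusted p = 0.000107). Both genes thus dipped at day 7 in air H lungs. Summed club cell markers, mostly Scgb1a1, moved likewise there, with means of 3100, 1258 and 2035 CPM at days 1, 7 and 27. So did endothelial markers, with 3724, 2935 and 3433 CPM, and type I pneumocyte markers, with 5077, 4439 and 5075 CPM. The sums of other lists did not dip. Summed ciliated cell markers, mostly Tppp3, had means of 562, 576 and 510 CPM. That sum does not show how the other ciliated markers moved. Type II pneumocyte markers had 14890, 17180 and 17170 CPM, and fibroblast markers, mostly Col3a1, had 4555, 5127 and 3522 CPM. Alveolar macrophage markers had 471, 518 and 514 CPM, and neutrophil markers had 96.75, 131.9 and 110 CPM. Smooth muscle markers fell at both steps, with 1120, 1001 and 922 CPM, as did red blood cell markers, with 2431, 2144 and 1668 CPM. The part of these cells in the dip was not tested. In air L lungs Por had 128 ± 14.8, 125 ± 6.89 and 91.5 ± 23.1 CPM at days 1, 7 and 27. Day 7 against day 1 was not called there (log2 fold -0.05, adjusted p = 0.815), and day 27 was lower than day 7 (log2 fold -0.45, SE 0.10, adjusted p = 0.00177). Cyp2s1 had means of 26.9, 24.1 and 19.2 CPM in air L lungs at those days. Neither step was called (log2 fold -0.17 and -0.32, adjusted p = 0.63 and 0.216). The club cell sum dipped at day 7 in air L lungs too, with means of 2923, 2017 and 2207 CPM. Endothelial markers had 3418, 3431 and 3210 CPM there, and type I pneumocyte markers had 5330, 5239 and 4915 CPM. Whether the change over time differed between the letters was not tested.

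Cyp4b1 rose to 414 ± 26 CPM at day 7 in air H lungs, against 292 ± 47.7 CPM at day 1 (log2 fold 0.53, SE 0.082, adjusted p = 9.55e-07), and in air L lungs to 484 ± 59.6 CPM at day 27, against 357 ± 37.8 CPM at day 7 (log2 fold 0.45, SE 0.076). Cyp2b1 rose to 370 ± 38.3 CPM at day 7 in air L lungs, against 257 ± 37.4 CPM at day 1, with no overlap (log2 fold 0.51, SE 0.10, adjusted p = 0.000427). Both flavin monooxygenases rose between days 7 and 27 in air L lungs. Fmo1 had 320 ± 28.7 CPM at day 27 and 223 ± 26.8 CPM at day 7, without overlap (log2 fold 0.53, SE 0.088, adjusted p = 2.42e-05). Fmo2 had 648 ± 125 CPM at day 27 and 457 ± 56.0 CPM at day 7 (log2 fold 0.52, SE 0.18, adjusted p = 0.0495), a call lost with no filter (adjusted p = 0.0666) and with the 1 CPM filter (adjusted p = 0.0504). In air H lungs Fmo2 rose by 0.37 between the same days (SE 0.13, adjusted p = 0.0315). Ephx1 was not called in any of the 20 comparisons.

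In air H lungs the test called 3 of the 7 genes from day 1 to day 7, against 38.6% of all genes, and 3 from day 7 to day 27, against 30% of all genes. In air L lungs it called 1 of 7 from day 1 to day 7, against 13.6% of all genes, and 4 of 7 from day 7 to day 27, against 16.2% of all genes.

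How the 7 genes varied together among animals was read within groups, from each library's deviation from its group mean in log2 CPM, over the 69 libraries of at least 500000 counts. Of 21 pairs, 4 passed for Pearson's r after Benjamini-Hochberg adjustment (permutation test, two-sided), and all 4 were positive. Cyp2b1 and Cyp4b1 had r = 0.462 (permutation p = 0.0016, adjusted p = 0.0168) and Spearman's rho = 0.351 (adjusted permutation p = 0.0459), and r = 0.334 without the 2 libraries farthest from the median of Cyp2b1. Cyp4b1 and Por had r = 0.425 (permutation p = 0.00073, adjusted permutation p = 0.0153) and rho = 0.434 (adjusted permutation p = 0.00924), and r = 0.353 without the 2 farthest libraries. Cyp4b1 and Ephx1 had r = 0.366 and rho = 0.351, and Cyp2b1 and Ephx1 had r = 0.363 and rho = 0.372, with permutation p-values of 0.00916 and 0.00716 for r and adjusted permutation p-values of 0.038 to 0.0481 for r and rho. Without the 2 farthest libraries these were r = 0.387 and r = 0.382. By day, Cyp2b1 and Cyp4b1 had r = 0.498, 0.309 and 0.503 at days 1, 7 and 27, and Cyp4b1 and Por had r = 0.655, 0.225 and 0.363. By letter, Cyp4b1 and Por had r = 0.432 in the H set and 0.416 in the L set. Fmo1 and Fmo2 had r = 0.337 (adjusted permutation p = 0.0527) and rho = 0.231. No pair of a flavin monooxygenase with one of the other 5 genes passed, and those r values lay between -0.123 and 0.12.

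The genes most like each member were found among 6201 genes with a mean log2 CPM of at least 5, as the highest Pearson's r over the same 69 libraries, given as a description with no p. The other members and symbols that are only identifiers were left out. Cyp2s1 was most like the cilium genes Dnah10 (r = 0.689), Cfap46 (0.682) and Ccdc108 (0.645). Ephx1 was most like Cd24 (r = 0.73), the airway secretoglobin Scgb3a2 (0.693) and Wfdc2 (0.627). Por was most like Actn4 (r = 0.77), Ubb (0.757) and Cldn18 (0.739). Cyp4b1 was most like Arpc4 (r = 0.569), the water channel Aqp5 (0.561) and Wfdc2 (0.56), and Cyp2b1 like Cryab (r = 0.634), the lysosomal protease Ctsb (0.616) and Mkrn1 (0.601). Fmo1 and Fmo2 shared the most similar gene, Clec1a, with r = 0.541 and r = 0.652. Fmo1 was next most like Afap1l1 (0.525) and Zrsr1 (0.515), and Fmo2 like Vipr1 (0.577) and Acer2 (0.539). Without the 2 libraries farthest from the median of the member, the values ran from 0.351 (Fmo1 with Zrsr1) to 0.747 (Por with Ubb). Clec1a then had 0.462 with Fmo1 and 0.477 with Fmo2. All values of a library share its depth and the composition of the piece of lung.

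Marker lists gave the same kind of description. The median r with 9 ciliated cell markers was 0.465 for Cyp2s1 and 0.475 for Ephx1, and with 7 club cell markers it was 0.305 and 0.402, where the median over all 14955 other genes was 0.004 and -0.002. All 7 club cell markers were positive with both genes, and the highest were Scgb1a1 with Cyp2s1 (r = 0.603) and Scgb3a2 with Ephx1 (r = 0.693). Cyp4b1 had its highest median with the 10 type II pneumocyte markers, 0.293, and Cyp2b1 with the 6 alveolar macrophage markers, 0.322. Cyp2s1 had a median of -0.30 with the type II markers. For Fmo1, Fmo2 and Por the highest medians were with the 6 smooth muscle markers, 0.223, 0.125 and 0.257. Other lists came close, with 0.222 for Fmo1 and 6 neutrophil markers and 0.122 for Fmo2 and 5 red blood cell markers. Ephx1 also had 0.304 with 5 cardiac muscle markers. Not all markers of a list had the same sign. Positive r numbered 8 of 9 ciliated markers for Cyp2s1, with -0.178 for Tppp3, and 8 of 10 type II markers for Cyp4b1, with -0.205 for Nkx2-1.

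**Figure D5:**
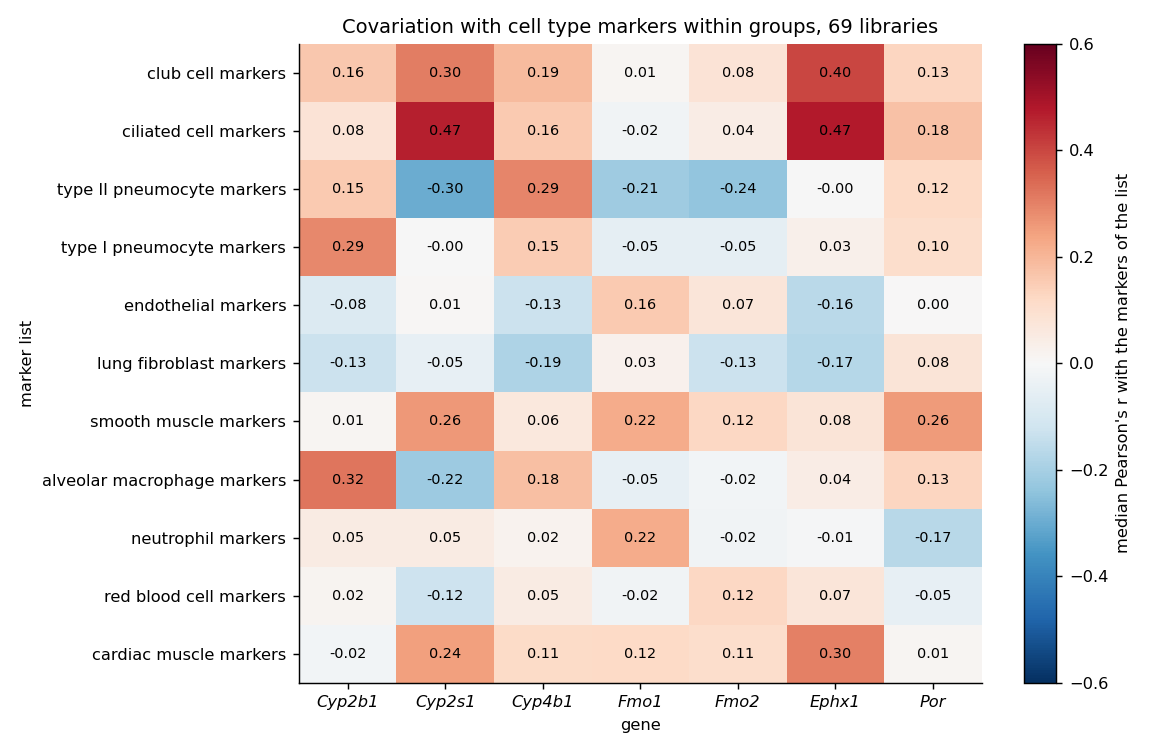
Median Pearson's r of each of the 7 genes (columns) with the markers of 11 cell type lists (rows), over 69 libraries as deviations from group means; red is positive and blue negative. Cyp2s1 and Ephx1 have their highest medians with the ciliated list (0.465 and 0.475), Cyp4b1 with the type II list (0.293) and Cyp2b1 with the alveolar macrophage list (0.322).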

How the data were processed

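Lung RNA of 72 rats was analysed. The deposited values are raw read counts per gene symbol, made by the authors; per the submitters' processing notes, the tools were HTSeq 0.6.1, SAMtools 1.8, HISAT2 2.1.0, Trimmomatic 0.35 and bcl2fastq 2.19 and the build Rnor_6.0, with no order given. Per the labels' protocols, libraries were stranded and depleted of ribosomal RNA; the strand setting of the counting is not given in the sources used here, so overlapping or antisense reads are uncertain. Groups came from titles and characteristics. Each animal is 1 replicate, and replicate libraries were not identical. The 7 genes and the gene lists were chosen with earlier results of these data known. edgeR 4.0.16, run in R 4.3.3, tested the counts (TMM, filterByExpr by group, robust quasi-likelihood, Benjamini-Hochberg, threshold 0.05), with the 24 libraries of a day, the 36 of a letter or all 72 in 1 fit. Standard errors come from the F statistic. The fits were tested on simulated data. DESeq2 1.42.0, limma 3.58.1 and other scalings, filters and library sets were alternatives. From each pathway list up to 4 genes were named per comparison, those past the threshold with the smallest p first; some are not reported here. Correlations used 100000 permutations. Total counts limit the precision, most in the shallow libraries.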

Additional observations from a re-analysis of the deposited data

Results flagged for a closer look

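Within the 84 groups of 6 libraries formed by 7 genes and 12 groups, 7 held a highest or lowest library whose gap to the next was over 0.625 of the group's range, where chance gives about 1 in 20. Cyp2b1 in animal 089 of 200 ug/m3 at day 27 was 230 CPM, and the next lowest was 377 CPM. Cyp2s1 in animal 084 of air L at day 27 was 12.8 CPM, and the next lowest was 18.9 CPM. Fmo1 in animal 025 of air H at day 1 was 273 CPM above a next highest of 238 CPM, and Fmo1 in animal 090 of 200 ug/m3 at day 27 was 249 CPM below a next lowest of 295 CPM. Ephx1 was 54.6 CPM in animal 050 of air L at day 1, low in its group, and 108 CPM in animal 081 of air L at day 27, high in its group. Por in animal 066 of air L at day 7 was 112 CPM, the lowest of that group, and still above every H lung of that day. None of these libraries was shallow.

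Among the 7 genes at each day, Cyp2b1 at day 7 was the 1 case in which all 6 lungs at 1000 ug/m3 and all 6 at 200 ug/m3 lay on opposite sides of their air means. How many genes of the whole table did so was not counted. In the shallow animal 037 of 1000 ug/m3 the level rests on 40 counts. The 1000 ug/m3 lungs averaged 39.3 CPM above air H. The test of the difference between the 2 effects gave an adjusted p of 0.497.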

How the results depend on the processing

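Over the alternatives, no called value of the 7 genes changed sign. Of 158 values from other scalings, filters, tools or library sets, 152 kept the call and 6 lost it; of 96 with 1 library left out, 87 kept it and 9 lost it. Of 1053 and 1416 such values that were not called, 7 and 5 gained a call. Genes called in 1000 against 200 ug/m3 lungs at day 7 numbered 4, but 2 in the fit of all 72 libraries and 2 in the fit of only the 12 libraries compared, and 2 to 4 with 1 library left out. In air H against air L at day 27 the count was 0, but 1 (Por) in DESeq2, in limma-voom and in the fit of all 72 libraries and 1 (Cyp2b1) in the fit of only the 12 libraries, and 0 to 1 with 1 library left out. The cause was not tested. Over all genes, the calls of air H against air L at day 1 went from 207 to 129 with the 1 CPM filter and to 1016 in the fit of all 72 libraries, and 1000 against 200 ug/m3 lungs at day 1 went from 0 to 150 in that fit. The difference between concentrations at day 27 had 0 calls, and 34 in DESeq2. The 4 pairs that passed had r of 0.346 to 0.470 over all 72 libraries. No paired analysis was possible because animal numbers differ between all groups. With the animal number series of the H set as a block, Ephx1 gained a call in 1000 against 200 ug/m3 lungs at day 7 (log2 fold 0.34, adjusted p = 0.0425). Changes over time and the averaged effect were not refitted with single libraries left out. Depth limits Cyp2s1 most, with 1 to 174 counts per library.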

Other observations

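In air H lungs, 9 of 22 conjugating enzymes were higher at day 7 than at day 1 and 1 was lower, where 38.6% of all genes were called and the median of the list was 0.37, beside 0.047 over all genes. Gstp1 had 106 ± 6.5 CPM at day 7 and 75.4 ± 5.26 CPM at day 1 (log2 fold 0.53, SE 0.084, adjusted p = 1.39e-06). Of 25 genes of carbonyl and ester metabolism, 10 were higher and 1 lower. The lower one, the paraoxonase gene Pon2, had 77.7 ± 21.2 CPM at day 7 and 191 ± 30.0 CPM at day 1 (log2 fold -1.27, SE 0.13, adjusted p = 1.58e-09). Pon2 was lower in air L lungs too, with 94.4 ± 6.35 CPM at day 7 and 175 ± 15.1 CPM at day 1 (log2 fold -0.91, SE 0.083, adjusted p = 1.46e-10). Depth differed between these days.

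Between days 27 and 7 in air H lungs, the aryl hydrocarbon receptor gene Ahr was lower, with 196 ± 12.9 CPM at day 27 and 250.5 ± 32.5 CPM at day 7 (log2 fold -0.39, SE 0.089, adjusted p = 0.000769). Cyp1a1, the P450 gene best known as a target of that receptor, had 4.41 ± 3.14 CPM at day 27 and 14.4 ± 9.98 CPM at day 7 in these air-breathing animals (log2 fold -1.74, SE 0.53, adjusted p = 0.0119). Between these days 30% of all genes were called, and a link between Ahr and Cyp1a1 was not tested.

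In air L lungs, the amine methyltransferase Inmt had 80.7 ± 22 CPM at day 27 and 40.5 ± 12.2 CPM at day 7 (log2 fold 1.01, SE 0.24, adjusted p = 0.00342), and the sulfotransferase Sult1a1 had 116 ± 17.8 CPM at day 27 and 76.3 ± 5.95 CPM at day 7 (log2 fold 0.62, SE 0.11, adjusted p = 1e-04). Cyb5r3 was lower at day 27 in air L lungs, with 177 ± 11.4 CPM, against 261 ± 18.7 CPM at day 7 (log2 fold -0.55, SE 0.063, adjusted p = 2.94e-08), and higher at day 27 in air H lungs, with 236 ± 23.5 CPM, against 159 ± 14.9 CPM at day 7 (log2 fold 0.54, SE 0.082, adjusted p = 1.49e-06). The difference between the letters in this change was not tested.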
